A study of Mus musculus with 6 samples.

Results

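The 10 genes described here encode the cell-surface glucose transporters Slc2a1 and Slc2a3 and 8 subunits of glycolytic enzymes: Hk1 and Hk2 of hexokinase, Pfkl, Pfkm and Pfkp of phosphofructokinase, Aldoa of aldolase, Eno1 of enolase and Ldha of lactate dehydrogenase. They were chosen by name for their place in the pathway, with earlier results of these data known. All 10 were among the 24083 gene symbols of the expression table. Polyadenylated RNA was sequenced from 3 libraries of mouse embryonic stem cells with the R153A form of Nanog and from 3 libraries of the same cell type with wild-type Nanog (WT). NANOG, a homeodomain protein, regulates transcription in pluripotent cells, and R153A names the exchange of an arginine for an alanine. All cells, with no other treatment, were grown on gelatin with serum and LIF, a cytokine that keeps mouse stem cells self-renewing. The sources used here do not tell how R153A was introduced or if a group's libraries are separate clones or cultures, so the p-values measure the spread between these libraries, which may be technical.

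Glycolysis splits glucose into pyruvate, and lactate dehydrogenase turns pyruvate into lactate, which cells export. Hexokinase traps glucose in the cell, and phosphofructokinase carries out the committed step, which is the main point of allosteric control. Several enzymes of the pathway exist as isoenzymes from separate genes, with subunits that differ in affinity, regulation and tissue. Pluripotent stem cells are known for a high glycolytic rate, and primed pluripotent cells are known to lean on it more than naive ones.

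Values are FPKM, by definition a gene's fragments divided by its length and by the library's mapped total, to set levels side by side between genes. The sources used here do not tell which tool made them or which annotation gave the lengths. The FPKM of all genes summed to between 360152 and 382086 per library, no read counts were given, and no common per-read step was found in the low values, so the depth was unknown. Nanog mRNA stood at 119, 122 and 129 FPKM in R153A libraries, against 241, 259 and 258 FPKM in WT libraries. Of 7 markers of pluripotent stem cells, 6 fell and none rose in R153A, at a limma adjusted p under 0.05. Of all genes tested, 22.3% fell and 37.5% rose at that threshold. Summed levels of the 7 were 2241 to 2341 FPKM in R153A and 4201 to 4955 FPKM in WT. Dppa5a was the largest part, with means of 936 FPKM in R153A and 2575 FPKM in WT. Tdgf1, which did not pass, averaged 429 FPKM in R153A and 432 FPKM in WT. The summed levels of marker lists of other cell types were 8.27 to 9.14 FPKM in R153A and 5.68 to 6.48 FPKM in WT for fibroblasts and feeder cells, where 2 of 3 tested genes rose. They were 5.13 to 5.76 FPKM in R153A and 3.44 to 4.64 FPKM in WT for primitive endoderm, and 33.1 to 34.2 FPKM in R153A and 56.3 to 62.2 FPKM in WT for trophectoderm. They were 6.33 to 7.87 FPKM in R153A and 3.60 to 4.86 FPKM in WT for mesoderm and primitive streak, and 39.2 to 41.4 FPKM in R153A and 51.0 to 60.4 FPKM in WT for neuroectoderm. Single markers in these lists moved in opposite directions. Nes, a neural progenitor gene, averaged 23.3 FPKM in R153A and 3.99 FPKM in WT, and Krt7 7.61 FPKM in R153A and 1.197 FPKM in WT. T (brachyury) averaged 4.19 FPKM in R153A and 0.117 FPKM in WT, Foxa2 3.40 FPKM in R153A and 0.176 FPKM in WT, and Cdx2 2.78 FPKM in R153A and 0.117 FPKM in WT, and all 5 rose (highest limma adjusted p = 4.45e-08). Tfap2c of the trophectoderm list fell to 19.8 FPKM in R153A against 55.4 FPKM in WT, and Tubb3 of the neuroectoderm list to 15.3 FPKM in R153A against 48.3 FPKM in WT. Sox7 of the primitive endoderm list fell to 0.278 FPKM in R153A against 2.18 FPKM in WT (limma adjusted p = 1.99e-06). Eomes of the mesoderm and primitive streak list fell to 2.42 FPKM in R153A against 3.38 FPKM in WT (limma adjusted p = 0.0163). Of the markers too low to test, Sox17, Lum, Mesp1, Kdr and Neurog2 stayed at or under 0.0687 FPKM in every library. Mesp1 was listed at 0 in 5 libraries. Col3a1, Dcn, Pdgfrb, Pdgfra, Gata3, Mixl1 and Sox1, also untested, were higher in R153A without overlap, with R153A means of at most 0.792 FPKM. Pax6, Gsc and Sox17 were lower in R153A without overlap, with WT means of at most 0.756 FPKM. Libraries did not overlap for 65.0% of all genes tested. The part of these differences in the results on glycolysis was not tested, and in bulk RNA a change in the share of cells of a type and a change in RNA per cell cannot be told apart.

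In R153A cells the mRNAs of glucose uptake and of lactate production were higher, while Pfkp, the most abundant phosphofructokinase transcript of WT cells, was 3.38-fold lower. Of the 10 genes, 5 rose (Ldha, Slc2a1, Eno1, Slc2a3 and Pfkl), 3 fell (Pfkp, Hk1 and Pfkm), and 2 did not pass (Hk2 and Aldoa), at a limma adjusted p under 0.05 over the 11817 genes tested. All 10 passed the expression filter, each with at least 11.9 FPKM in every library. Of all genes tested, 37.5% were called higher and 22.3% lower in R153A, 59.8% in all, so the count of called members is read against a wide background. Pfkp was the only member that changed at least 2-fold (log2 fold change of at least 1 in size). That size was reached with a call by 8.29% of all genes tested, on a scale that understates the change of low genes. The 3 R153A libraries were all above or all below the 3 WT libraries for 9 of the 10 genes and for 65.0% of all genes tested. The median log2 fold change of the 10 genes was 0.15, beside 0.07 over all genes tested, and their median absolute log2 fold change was 0.33, beside 0.24. Throughout, a log2 fold change is the R153A mean of log2(FPKM + 1) less that of WT.

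**Figure D1:**
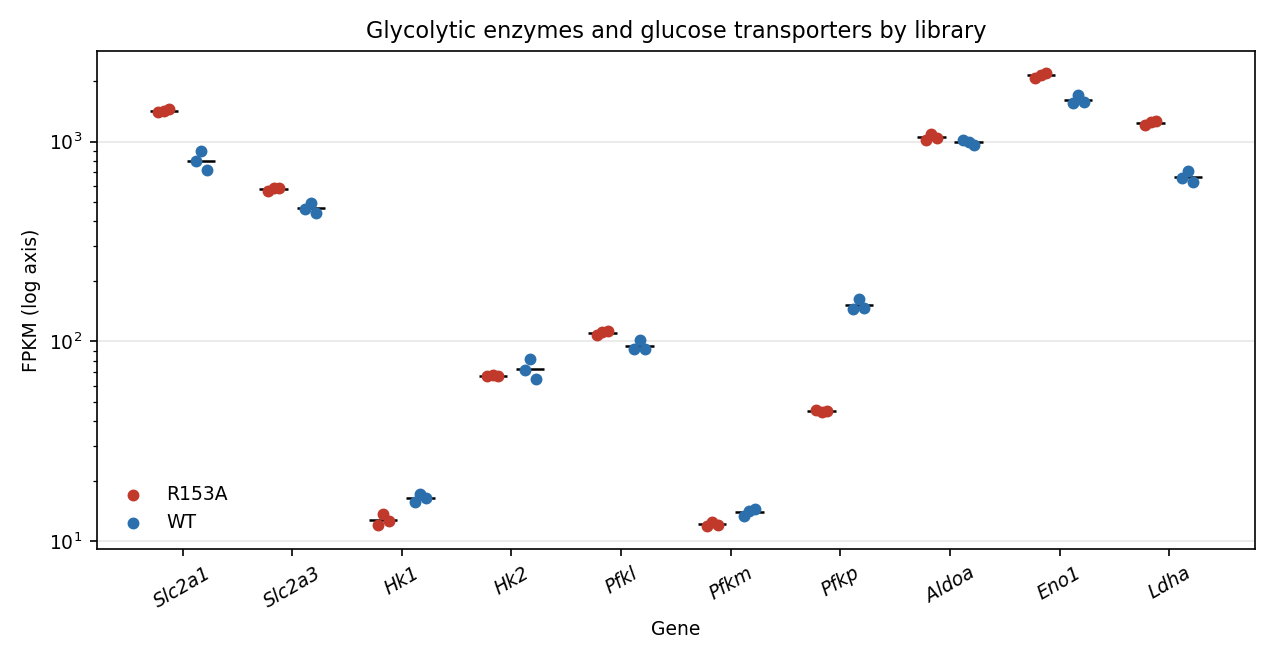
FPKM of each gene (log axis) in the 3 R153A libraries (red) and the 3 WT libraries (blue), with 1 point per library and a bar at the group mean. Pfkp lies at 44.1 to 45.5 FPKM in R153A and 144 to 163 FPKM in WT, and the libraries of the groups overlap only for Hk2.

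The sequences just upstream of the 3 genes with the largest changes are shown because HIF1 and MYC, transcription factors known to act on glycolytic genes, bind short motifs that can be read off directly. Each line holds the 250 bases before the RefSeq start, 5′ to 3′ along the gene, with ACGTG or GCGTG on either strand in capitals. These are the cores of the hypoxia response element, and CACGTG, the E-box that MYC binds, contains ACGTG on both strands. The windows lie at chr13:6648772-6649021 (minus strand) for Pfkp, chr7:46845554-46845803 (plus strand) for the first of 2 starts of Ldha, and chr4:119108495-119108744 (plus strand) for Slc2a1, all in GRCm38.p6, while the submitters' processing notes name mm9 for the expression values.
Pfkp: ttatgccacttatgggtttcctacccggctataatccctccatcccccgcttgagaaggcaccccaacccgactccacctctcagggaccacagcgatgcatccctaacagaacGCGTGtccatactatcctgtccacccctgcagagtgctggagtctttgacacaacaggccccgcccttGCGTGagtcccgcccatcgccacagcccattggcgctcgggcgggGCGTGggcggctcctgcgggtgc
Ldha: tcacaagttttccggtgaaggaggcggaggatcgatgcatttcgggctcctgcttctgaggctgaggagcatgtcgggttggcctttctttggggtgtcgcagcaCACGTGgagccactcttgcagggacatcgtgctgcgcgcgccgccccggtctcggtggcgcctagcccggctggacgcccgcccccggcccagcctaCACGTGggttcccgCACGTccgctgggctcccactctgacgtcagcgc
Slc2a1: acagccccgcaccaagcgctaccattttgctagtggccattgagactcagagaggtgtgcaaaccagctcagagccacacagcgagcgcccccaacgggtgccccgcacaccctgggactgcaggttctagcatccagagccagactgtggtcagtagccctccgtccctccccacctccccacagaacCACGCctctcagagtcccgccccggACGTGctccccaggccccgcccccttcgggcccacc
The Pfkp window held 3 matches to GCGTG, the Ldha window 5 matches to ACGTG, 4 of them from 2 copies of CACGTG, and the Slc2a1 window 1 match to each. RefSeq windows were found for 9 of the 10 genes. Of their 18 windows, some of which overlap, 15 held ACGTG or GCGTG and 2 held CACGTG, where 38.6% and 6.02% of all 32851 windows did. The median GC content was 61.6% in the windows of these genes and 52.4% in all windows. Both the gene that fell most and the genes that rose most held such matches, and no factor's binding was measured here.

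Both glucose transporters rose, and the ubiquitous transporter GLUT1 rose more than the high-affinity transporter GLUT3. Slc2a1, which encodes GLUT1, had 1398, 1417 and 1454 FPKM in R153A libraries, against 796, 895 and 716 FPKM in WT libraries. The 3 R153A values stood close together and far above the widely spread WT values. Its mean was 1.77-fold higher (log2 fold change 0.83, SE 0.0739, limma adjusted p = 2.61e-06). Slc2a3, which encodes GLUT3, had 565, 585 and 583 FPKM in R153A libraries and 462, 495 and 437 FPKM in WT libraries. The groups did not overlap (log2 fold change 0.31, SE 0.0548, limma adjusted p = 4.85e-04). Together they amounted to 2001 ± 36.7 FPKM in R153A and 1267 ± 118 FPKM in WT (SD, n = 3 each). Slc2a1 was rank 20 of all genes by mean FPKM in R153A and rank 78 in WT.

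Within the pair, Slc2a3 held 28.8%, 29.2% and 28.6% of the summed FPKM in R153A libraries, against 36.7%, 35.6% and 37.9% in WT libraries. The share was 7.87 percentage points lower in R153A, and the groups did not overlap. Such shares are taken within a library, so scaling a library by 1 factor leaves them as they are. They were tested by exact two-sided permutation of the libraries, for which 3 against 3 cannot go below p = 0.1. The share of Slc2a3 reached that value (0.114 after Benjamini-Hochberg adjustment over 8 shares).

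Of the hexokinases, Hk1 fell and Hk2 did not pass. Hk1, the broadly expressed isoenzyme, had 12.1, 13.7 and 12.6 FPKM in R153A libraries and 15.6, 17.3 and 16.5 FPKM in WT libraries. All R153A values lay below all WT values (log2 fold change -0.34, SE 0.0642, limma adjusted p = 8.45e-04). Hk2 is the inducible isoenzyme and is abundant in many dividing cells. It had 66.8, 67.6 and 67.1 FPKM in R153A libraries, against 72.0, 81.6 and 64.5 FPKM in WT libraries. The R153A values fell inside the WT range, and the log2 fold change was -0.11 (95% confidence interval -0.27 to 0.05, limma adjusted p = 0.230). The call for Hk2 depended on the WT libraries: it was lower without WT replicate 3 (log2 fold change -0.19, limma adjusted p = 0.0155) and near 0 without WT replicate 2 (-0.021, limma adjusted p = 0.758). It was also called lower under median-ratio scaling (-0.19, limma adjusted p = 0.0405) and after a GC and length correction (-0.26, limma adjusted p = 0.00306), with a range of adjusted p of 0.00306 to 0.758 over 17 alternatives.

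Hk2 made up most hexokinase mRNA in both groups. Its share of Hk1 + Hk2 was 84.7%, 83.1% and 84.2% in R153A libraries and 82.2%, 82.5% and 79.6% in WT libraries. The difference of 2.56 percentage points was small, though the groups did not overlap (exact permutation p = 0.1, the smallest possible, adjusted 0.114), and it was 1.65 points without WT replicate 3. The hexokinase genes Hk3 and Hkdc1 reached at most 0.103 FPKM in any library. The summed hexokinase mRNA was 79.98 ± 1.21 FPKM in R153A and 89.2 ± 9.08 FPKM in WT (SD, n = 3 each), with overlapping libraries.

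Of the phosphofructokinase subunits, Pfkp fell more than any other of the 10 genes changed, Pfkm fell slightly and Pfkl rose slightly. The enzyme is a tetramer of subunits named for liver (Pfkl), muscle (Pfkm) and platelet (Pfkp). Pfkp had 45.5, 44.1 and 44.96 FPKM in R153A libraries, against 144, 163 and 146 FPKM in WT libraries. The R153A values lay within 2 FPKM of each other and far below every WT value. Its mean was 3.38-fold lower in R153A (log2 fold change -1.73, SE 0.0544, limma adjusted p = 1.17e-09), and its absolute change was as large as or larger than that of 98.2% of all genes tested. By mean FPKM, Pfkp stood at rank 1378 in R153A and rank 350 in WT.

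Pfkl had 107, 111 and 112 FPKM in R153A libraries and 91.5, 102 and 91.1 FPKM in WT libraries. The groups did not overlap (log2 fold change 0.22, SE 0.0537, limma adjusted p = 0.00463), but the change was 0.05 after the GC and length correction, which did not pass (limma adjusted p = 0.328, range 7.50e-04 to 0.328 over 17 alternatives). Pfkm had 11.9, 12.5 and 12.0 FPKM in R153A libraries and 13.4, 14.2 and 14.6 FPKM in WT libraries. It was lower in every R153A library than in any WT library (log2 fold change -0.20, SE 0.0571, limma adjusted p = 0.0111), a call that ended without R153A replicate 1 (limma adjusted p = 0.0512, range 1.99e-04 to 0.0512 over 17 alternatives).

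The main phosphofructokinase transcript was Pfkl in R153A and Pfkp in WT. Pfkp held 27.6%, 26.2% and 26.5% of the summed FPKM of the 3 genes in R153A libraries, against 57.9%, 58.4% and 58.0% in WT libraries. Pfkl held 65.2%, 66.3% and 66.4% in R153A libraries and 36.7%, 36.5% and 36.2% in WT libraries. Pfkm was a minor part throughout, at 7.25 ± 0.167% in R153A and 5.42 ± 0.351% in WT (SD, n = 3 each). The Pfkp share was 31.3 points lower and the Pfkl share 29.5 points higher in R153A, and for all 3 shares the groups did not overlap (exact permutation p = 0.1, adjusted 0.114). The ratio of Pfkp to Pfkl was 0.423, 0.396 and 0.400 in R153A libraries and 1.58, 1.60 and 1.60 in WT libraries, a difference of -1.97 on the log2 scale. Summed over the 3 genes, phosphofructokinase mRNA was 167 ± 2.43 FPKM in R153A and 260 ± 16.7 FPKM in WT (SD, n = 3 each), a 1.55-fold lower sum without overlap.

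**Figure D2:**
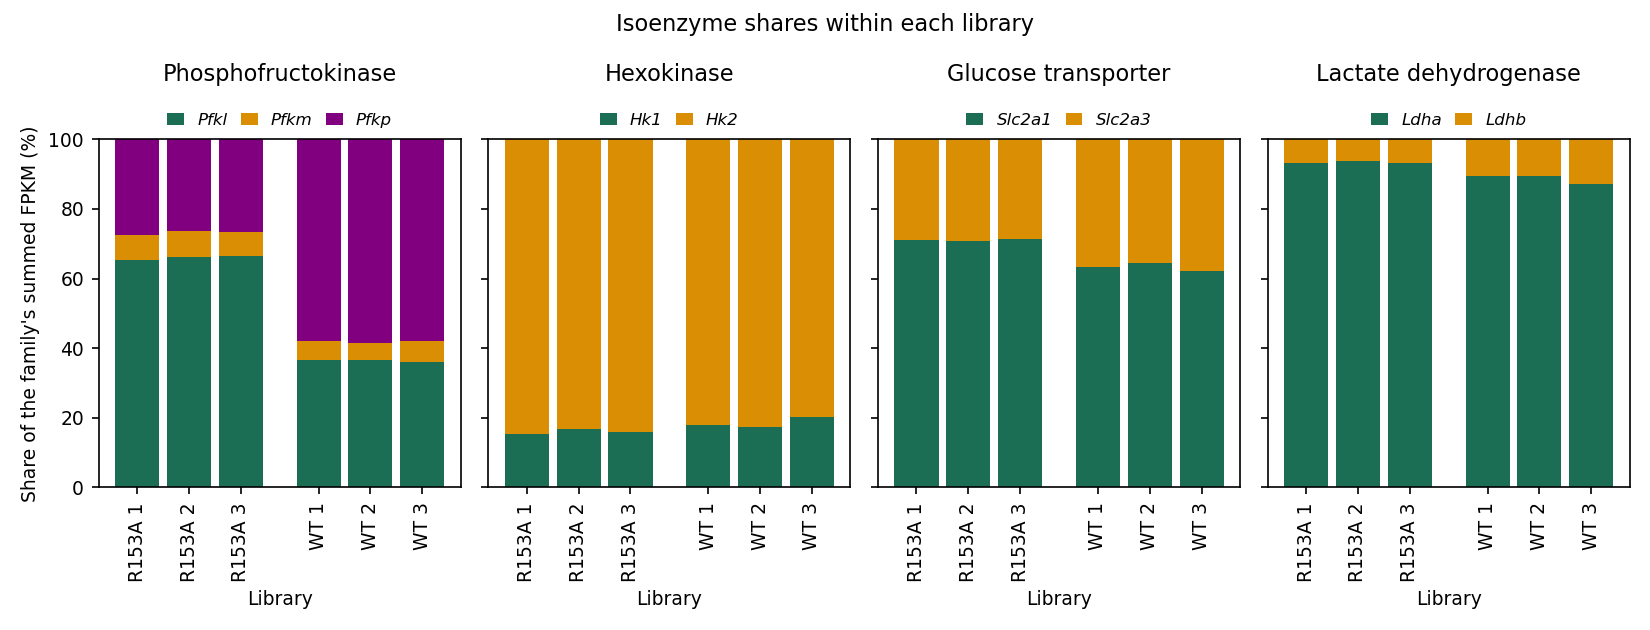
Share (%) of each isoenzyme in its family's summed FPKM within each library, for phosphofructokinase, hexokinase, the glucose transporters and lactate dehydrogenase, with the 3 R153A libraries left of the 3 WT libraries. The Pfkp part of the phosphofructokinase bars is 26.2 to 27.6% in R153A and 57.9 to 58.4% in WT, while the other families shift by less than 8 points.

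In the later steps of the pathway, Eno1 and Ldha rose and Aldoa did not pass. Aldoa, the main aldolase of most tissues, had 1023, 1091 and 1040 FPKM in R153A libraries and 1014, 993 and 960 FPKM in WT libraries. The R153A values lay just above the WT values, with a log2 fold change of 0.09 (95% confidence interval -0.026 to 0.20, limma adjusted p = 0.165), and the sign turned after the GC and length correction (-0.048). Aldoa held 98.8% of Aldoa + Aldoc in both groups, with overlapping libraries (exact permutation p = 0.5).

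Eno1, the ubiquitous enolase, had the highest level of the 10 genes, with 2084, 2161 and 2193 FPKM in R153A libraries and 1565, 1701 and 1576 FPKM in WT libraries. All R153A values lay above all WT values (log2 fold change 0.41, SE 0.0565, limma adjusted p = 8.35e-05). Its value is uncertain, because the table also holds Eno1b, whose longest reading frame is identical to that of Eno1 at 1297 of 1305 bases (99.4%) in GENCODE M21. Eno1b was listed at 2264 ± 59.02 FPKM in R153A and 1695 ± 80.8 FPKM in WT (SD, n = 3 each), a near-constant 1.05 to 1.06 times Eno1 in every library. The sources used here do not tell how reads that match both genes were counted. The muscle enolase gene Eno3, far less abundant, rose more, to 11.7 ± 0.333 FPKM in R153A against 5.78 ± 0.231 FPKM in WT (SD, n = 3 each), a 2.02-fold higher mean.

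Ldha, the lactate dehydrogenase subunit that favours lactate formation, had 1212, 1248 and 1265 FPKM in R153A libraries, against 660, 714 and 629 FPKM in WT libraries. Every R153A value lay far above the highest WT value. Its mean was 1.86-fold higher (log2 fold change 0.90, SE 0.0572, limma adjusted p = 1.89e-07), the largest rise of the 10 genes. Ldhb, the subunit of oxidative tissues, stood at 87.3 ± 4.91 FPKM in R153A and 85.4 ± 7.66 FPKM in WT (SD, n = 3 each; log2 fold change 0.03, 95% confidence interval -0.12 to 0.18, limma adjusted p = 0.686). The Ldha share of the pair was 93.2%, 93.8% and 93.2% in R153A libraries and 89.4%, 89.3% and 87.1% in WT libraries, 4.80 points higher without overlap (exact permutation p = 0.1, adjusted 0.114).

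In levels, the 10 genes ran in R153A from Eno1 through Slc2a1, Ldha, Aldoa, Slc2a3, Pfkl, Hk2, Pfkp and Hk1 to Pfkm, and in WT from Eno1 through Aldoa, Slc2a1, Ldha, Slc2a3, Pfkp, Pfkl, Hk2 and Hk1 to Pfkm. Hk1 and Pfkm in R153A were the only neighbours whose libraries overlapped. Together the 10 genes made up 1.75%, 1.80% and 1.78% of all FPKM in R153A libraries and 1.34%, 1.40% and 1.22% in WT libraries. WT replicate 2 held the highest WT value for 8 of the 10 genes and for 52.0% of all genes tested.

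Added up by step, in the order of the pathway, the FPKM as deposited were higher in R153A at 11 of 13 steps, lower at phosphofructokinase, and overlapping between the groups at hexokinase. Higher here means only that the libraries did not overlap, as held in either direction for 65.0% of single genes tested. The 11 include aldolase, whose genes Aldoa and Aldoc did not pass. The 13 steps run from uptake to the export of lactate, and these sums are a description without a test. The ratios of the means, R153A over WT, were highest at the end and the start of the pathway, with 1.82 for the lactate transporters, 1.77 for lactate dehydrogenase and 1.58 for glucose uptake, followed by 1.53 for phosphoglycerate kinase and 1.43 for triosephosphate isomerase. They were 1.33 for enolase, 1.21 for glucose-6-phosphate isomerase, 1.17 for glyceraldehyde-3-phosphate dehydrogenase and for pyruvate kinase, 1.14 for phosphoglycerate mutase and 1.06 for aldolase. The ratio for hexokinase was 0.897 and that for phosphofructokinase 0.643.

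**Figure D3:**
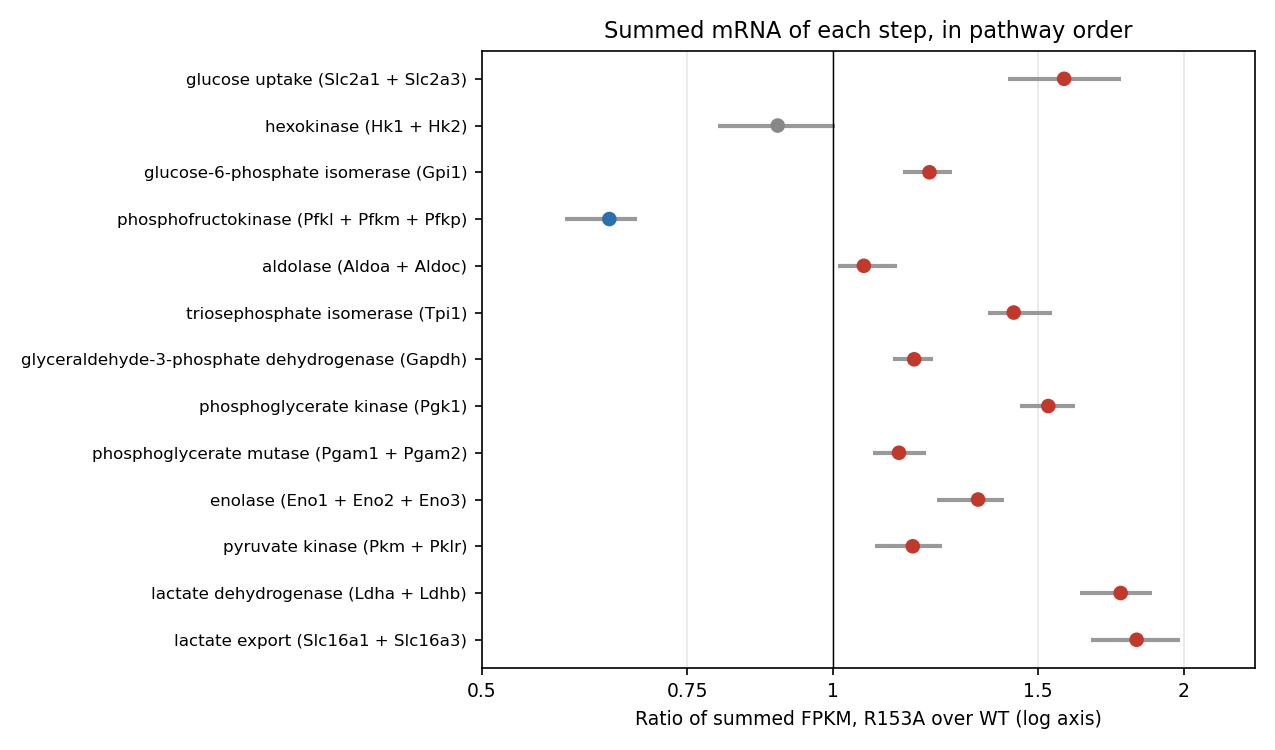
Ratio of summed FPKM, R153A over WT (log axis), for the genes of each step from uptake to lactate export. Points are ratios of the group means (red higher, blue lower, grey overlapping libraries), and bars run from the lowest R153A over the highest WT library to the highest R153A over the lowest WT library. Phosphofructokinase, at 0.643, stands apart on the lower side.

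On the list of other glycolytic enzymes, all 8 genes rose and none fell, beside 37.5% of all genes tested called higher. Their median log2 fold change was 0.25, beside 0.07 over all genes tested. Under median-ratio scaling or the GC and length correction 4 of the 8 still passed, with none lower. Of all genes, 3764 of 11817 were called higher under median-ratio scaling and 3309 of 11316 after the GC and length correction. Pgk1, phosphoglycerate kinase, had 1301 ± 31.5 FPKM in R153A and 851 ± 26.3 FPKM in WT (log2 fold change 0.61, limma adjusted p = 1.48e-06). Tpi1, triosephosphate isomerase, had 456 ± 9.10 FPKM in R153A and 319 ± 14.6 FPKM in WT (0.51, limma adjusted p = 5.12e-06). Gpi1, which forms the substrate of phosphofructokinase, had 311 ± 3.88 FPKM in R153A and 257 ± 9.38 FPKM in WT. Minpp1, a phosphatase that also acts on a side product of the pathway, had 16.6 ± 1.28 FPKM in R153A and 11.9 ± 1.09 FPKM in WT (SD, n = 3 each). Of 15 further isoenzymes only 5 were tested, of which Eno3 and Eno2 rose and none fell. Of 11 other hexose transporters 3 were tested, and Slc2a8, an intracellular transporter, fell to 7.98 ± 0.368 FPKM in R153A against 10.6 ± 0.747 FPKM in WT. The call for Eno2 (3.02 ± 0.125 FPKM in R153A, 2.32 ± 0.493 FPKM in WT) ended in 9 of 16 alternatives, among them all 4 other scalings and leaving out any R153A library or WT replicate 2 (limma adjusted p = 0.0510 to 0.105 without 1 of these libraries).

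Genes that set fructose-2,6-bisphosphate, the allosteric activator of phosphofructokinase, changed as well. Pfkfb3, a kinase that makes it, had 15.4, 13.7 and 14.5 FPKM in R153A libraries, against 4.46, 4.87 and 4.02 FPKM in WT libraries. Every R153A value exceeded every WT value, and the mean was 3.27-fold higher (log2 fold change 1.51, SE 0.0753, limma adjusted p = 2.80e-08). The gene for TIGAR, a phosphatase that lowers it, listed under its clone name 9630033F20Rik, fell to 5.77 ± 0.136 FPKM in R153A against 10.1 ± 0.347 FPKM in WT (log2 fold change -0.72, limma adjusted p = 1.91e-06). Beside 37.5% of all genes tested called higher and 22.3% lower, 2 of the 5 regulators tested rose and 3 fell. Of these regulators, 1 rose under each of the 4 other scalings. The other named ones were Txnip, a brake on glucose uptake, with 52.4 ± 2.53 FPKM in R153A and 64.7 ± 6.41 FPKM in WT, and Pfkfb2, an isoenzyme of Pfkfb3, with 2.26 ± 0.0998 FPKM in R153A and 2.77 ± 0.202 FPKM in WT (SD, n = 3 each). Both calls ended with no filter on low values (limma adjusted p = 0.0543 for Txnip and 0.0528 for Pfkfb2). The call for Pfkfb2 also ended without any 1 of the R153A libraries, WT replicate 1 or WT replicate 2 (limma adjusted p = 0.0603 to 0.113).

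Of all genes tested, 37.5% were called higher and 22.3% lower. Past pyruvate, 2 of 16 tested genes rose, 4 fell and 10 did not pass. Those that rose were Slc16a3 and Bsg, and those that fell were Mpc1, Mpc2, Pdk3 and Pdk4, while the exporter gene Slc16a1 and the pyruvate dehydrogenase genes Pdha1, Pdhb, Dlat, Dld and Pdhx were among those that did not pass. Slc16a3, the lactate exporter MCT4, had 123, 124 and 117 FPKM in R153A libraries and 53.9, 60.8 and 49.1 FPKM in WT libraries (log2 fold change 1.14, SE 0.0701, limma adjusted p = 1.36e-07). Its partner protein gene Bsg had 299 ± 16.03 FPKM in R153A and 242 ± 5.76 FPKM in WT. Mpc1, a subunit of the mitochondrial pyruvate carrier, had 3.38, 2.13 and 2.53 FPKM in R153A libraries and 8.58, 9.36 and 9.26 FPKM in WT libraries. The mean was 3.38-fold lower (log2 fold change -1.46, limma adjusted p = 6.85e-07). Pdk4, a kinase that inhibits pyruvate dehydrogenase, fell to 1.36 ± 0.111 FPKM in R153A against 2.68 ± 0.280 FPKM in WT (SD, n = 3 each). The 4 that fell were 7 under median-ratio scaling, also 7 with quantile normalization, and 8 with GC and length corrected. Calls of lower genes over the whole table grew as well, from 2634 of 11817 as deposited. They were 3655 of 11817 under median-ratio scaling, 3848 of 11817 with quantile normalization and 4115 of 11316 with GC and length corrected.

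Genes of the neighbouring pathways moved both ways, as did all genes tested, of which 37.5% were called higher and 22.3% lower. In the pentose phosphate pathway, which branches off after hexokinase, 5 of 8 tested genes rose and 2 fell, counts that were the same under all 4 other scalings. The largest changes were those of Pgls (42.1 ± 0.842 FPKM in R153A, 26.9 ± 1.73 FPKM in WT), H6pd (4.34 ± 0.286 FPKM in R153A, 2.58 ± 0.273 FPKM in WT), Pgd (73.3 ± 2.66 FPKM in R153A, 56.5 ± 2.59 FPKM in WT) and G6pdx (48.0 ± 0.278 FPKM in R153A, 39.5 ± 0.566 FPKM in WT), all higher in R153A. In glycogen metabolism 5 of 9 rose and 3 fell (4 rose and 3 fell under each of the 4 other scalings), led by the branching enzyme Gbe1, with 5.61 ± 0.439 FPKM in R153A and 1.25 ± 0.199 FPKM in WT (log2 fold change 1.56, limma adjusted p = 8.02e-08). Gyg, the glycogenin primer gene, had 7.18 ± 0.469 FPKM in R153A and 2.91 ± 0.193 FPKM in WT, the phosphorylase gene Pygl 3.96 ± 0.476 FPKM in R153A and 1.70 ± 0.0894 FPKM in WT, and the phosphoglucomutase gene Pgm2 35.1 ± 1.64 FPKM in R153A and 22.3 ± 1.22 FPKM in WT. Of gluconeogenesis, 3 of 7 genes were tested, 1 rose and 2 fell. Pck2, mitochondrial phosphoenolpyruvate carboxykinase, fell to 13.4 ± 0.181 FPKM in R153A against 35.1 ± 1.88 FPKM in WT (log2 fold change -1.32, limma adjusted p = 7.02e-09), and Pcx, pyruvate carboxylase, to 5.23 ± 0.107 FPKM in R153A against 6.88 ± 0.466 FPKM in WT. G6pc3 had 10.3 ± 0.231 FPKM in R153A and 8.58 ± 0.0730 FPKM in WT, and its call ended after the GC and length correction (limma adjusted p = 0.176, the highest of 17 alternatives).

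**Figure D4:**
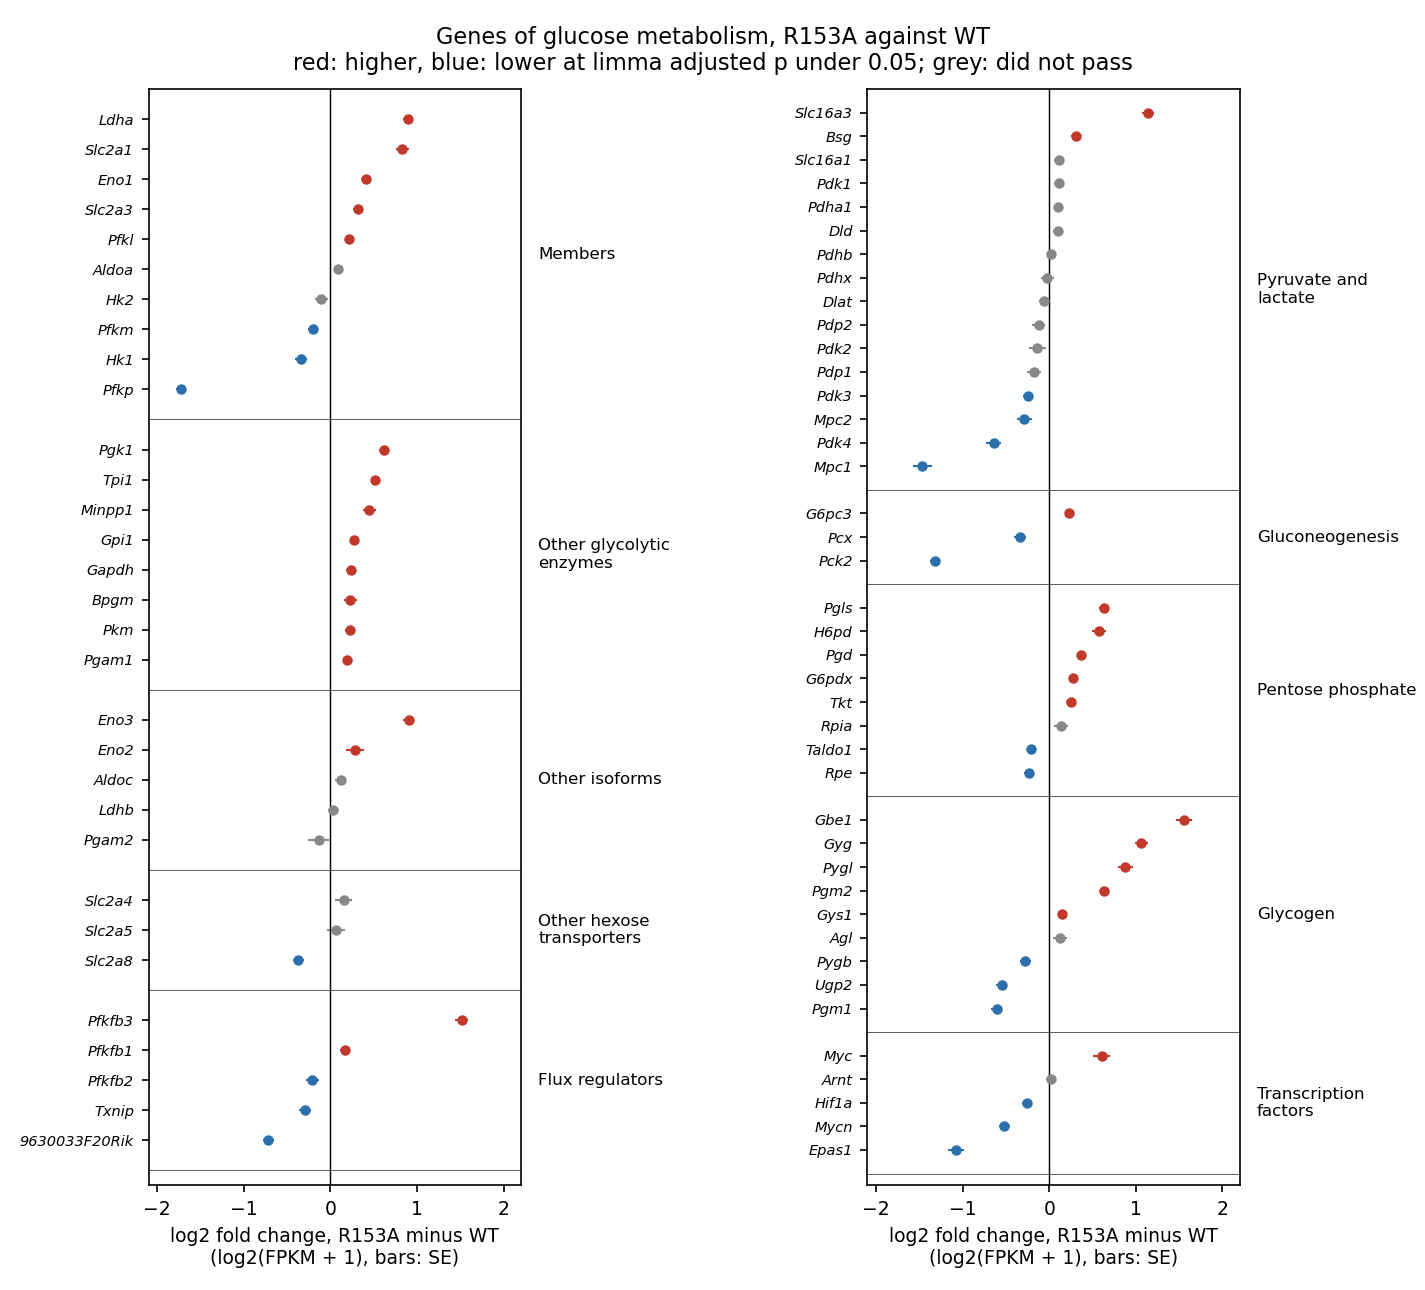
Log2 fold change, R153A minus WT (log2(FPKM + 1), bars SE), of the tested genes of glucose metabolism by list, in red or blue where the limma adjusted p was under 0.05. Pfkp (-1.73) and Mpc1 (-1.46) lie far to the left, and Gbe1 (1.56), Pfkfb3 (1.51) and Slc16a3 (1.14) far to the right.

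Of 5 transcription factors known to act on glycolytic genes, 1 rose and 3 fell, beside 37.5% higher and 22.3% lower of all genes tested. Myc had 5.06 ± 0.706 FPKM in R153A and 2.97 ± 0.311 FPKM in WT (log2 fold change 0.61, limma adjusted p = 3.06e-04). Its paralog Mycn, with a higher level, fell to 41.3 ± 3.55 FPKM in R153A against 59.4 ± 1.01 FPKM in WT (-0.52, limma adjusted p = 2.85e-05). The hypoxia-inducible factor genes Hif1a and Epas1 fell to 21.9 ± 0.172 and 3.10 ± 0.473 FPKM in R153A, against 26.5 ± 1.24 and 7.61 ± 0.282 FPKM in WT (SD, n = 3 each). These factors are known to be controlled largely at the protein level, which was not measured.

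The genes nearest to Pfkp, by the distance of log2(FPKM + 1) over the 6 libraries, were Mrps24, Tdh and Ucp2, at distances of 0.789, 0.923 and 0.978. They had means of 54.9, 46.9 and 64.9 FPKM in R153A and 122, 104.7 and 170.5 FPKM in WT. With 2 groups of libraries this nearness is mostly that of the 2 group means.

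The median log2 fold change of all genes tested was 0.07 as deposited, 0.06 as TPM, near 0 under median-ratio scaling, -0.02 after quantile normalization and -0.04 once GC and length were corrected. Higher genes made up 62.7% of all calls as deposited, 50.7% under median-ratio scaling, 48.1% under quantile normalization and 44.6% with GC and length corrected. Of the 10 genes, 4 were called higher and 4 lower after that correction, and their median was 0.00. Ldha, Slc2a1, Eno1 and Slc2a3 stayed higher and Pfkp and Hk1 lower, with a call, in all 17 alternatives.

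**Figure D5:**
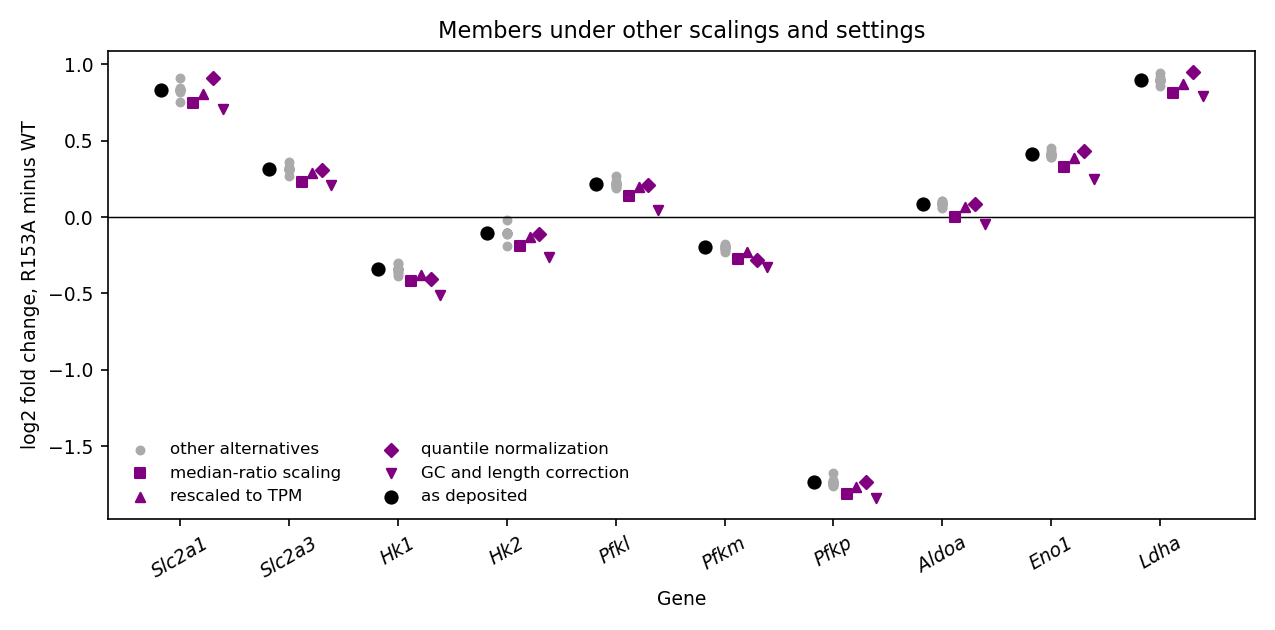
Log2 fold change of each gene, R153A minus WT, as deposited (black), under 4 other scalings or corrections (purple) and under the other alternatives (grey). Pfkp stays between -1.84 and -1.67 and Ldha between 0.79 and 0.95, while Aldoa lies between -0.048 and 0.11.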

How the data were processed

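Gene expression of 3 R153A and 3 WT libraries was analysed as the FPKM values deposited by the authors in 1 table of 24083 gene symbols. The submitters' processing notes name HTSeq 0.11.2, edgeR 3.26.8, Bowtie2 2.3.4.3 and SAMtools 1.9, without their roles or order, and the mm9 build. The sources used here give neither the annotation nor how reads shared by gene copies were treated. The low FPKM values gave no whole-read steps, with the most common ratio between libraries held by at most 1.77% of low genes, so no count test was run and depth-based precision is unknown. Genes with at least 1 FPKM in at least 3 of the 6 libraries (11817) were fitted as log2(FPKM + 1) with limma-trend (limma 3.58.1, R 4.3.3), with Benjamini-Hochberg adjustment over all of them and a threshold of 0.05. Fold changes on this scale understate the change of low genes. Isoenzyme shares and log2 ratios (8 and 9 tests) were compared by exact two-sided permutation (scipy 1.17.1). The fit was tested on simulated data and the share calculation on a made-up family with known shares. The fit was repeated under 17 alternatives: other pseudocounts (0.1, 0.5), no filter, a filter of 5 FPKM, median-ratio scaling, TPM, quantile normalization, no trend, robust moderation, a replicate block, a loess correction for GC content and transcript length, and leaving out each library. For that correction, 95.8% of the tested genes were matched by symbol to GENCODE M21 transcripts. Promoter sequences came from RefSeq (GRCm38.p6), and no window of Slc2a3 was among those at hand. Beside the 10 genes, the text names from each of 10 pathway lists (93 genes) up to 4 called genes with the largest absolute log2 fold change, and the 3 genes nearest to Pfkp; Ldhb, Eno1b, Nanog and the markers are named as isoenzyme, copy and sample checks. The members and lists were chosen with earlier results of these data known, and the sums by step were added after the values were seen.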

Additional observations from a re-analysis of the deposited data

How the results depend on the processing

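No named gene that was called changed sign. Over 690 pairs of a named gene and an alternative, 667 kept their side of the threshold, among them Aldoa, uncalled throughout, whose sign turned after the GC and length correction (-0.048), 20 lost the call and 3, all of Hk2, gained one. The genes called higher in all numbered 4428, and 2901 with a filter of 5 FPKM, which tests fewer genes. Those called lower numbered 2634, and 4115 after the GC and length correction; the cause was not tested. Of 68 recomputed share differences, 64 moved by less than the spread between libraries. Those with a replicate block, 1 for each of the 8 shares, equal the main ones by arithmetic and could not move. The shares were not recomputed after the GC and length correction. Under quantile normalization, which does not keep ratios within a library, the difference was 1.48 points for Pfkm, -9.12 for Slc2a3, 0.042 for Aldoa and -0.104 for Eno1. Leaving out 1 library gave 6282 to 6909 calls over all genes tested and 7 to 9 calls among the 10 genes. Replicate numbers did not pair the libraries (correlations of same-numbered deviations -0.0487, -0.0095 and 0.060), and with a replicate block 6876 genes, 8 of the 10 among them, were called, while Pfkfb2 lost its call (limma adjusted p = 0.0614). Without read counts, no limit of detection could be set for genes listed near 0.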
